A study of Mus musculus with 21 samples.

Results

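Short regions with a strong gain of MeDIP signal in intestinal adenoma were taken from the table of merged hypermethylated DMRs (differentially methylated regions) between adenoma and normal ileum. A region belonged here if it was 1 window of 500 bp long and if the mean signal of the adenomas was at least 2 times the mean of the normal samples. Of 5135 hypermethylated DMRs, 4266 were 1 window long, and 277 of these met the rule, which is 6.49% of the single-window regions. The whole series held 13980 DMRs, 8845 of them hypomethylated. The members were thus chosen by their MeDIP signal in the contrast of adenoma against normal intestine, so every value of that contrast given here is a description and was not tested.

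The samples were ileum of male C57BL/6J mice of 15 to 19 weeks. B6 normal intestine came from 3 wild type animals (Apc-+/+; B1, B2 and B3). APCMin normal intestine came from 3 animals of the genotype Apc-Min/+ (N4, N5 and N6), and 4 Apc-Min/+ animals gave the 5 tumour samples, which were the adenomas Ad4, Ad4-1, Ad5, Ad6 and Ad7. Ad4 and Ad4-1 were 2 adenomas of the mouse that gave N4, while Ad5 and N5, and Ad6 and N6, shared a mouse. All 11 libraries were made by MeDIP-seq, in which an antibody against 5-methylcytidine precipitates methylated DNA fragments that are then sequenced. Min is a germline mutation of one Apc allele, so all cells of the Apc-Min/+ animals carried it, in normal intestine as well as in adenoma. Whole excised tissue was used, in which a higher share of methylated cells and more methylated sites per cell cannot be told apart. The mixture of cell types in each sample was not measured.

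DNA methylation in mammals is placed mainly on the cytosine of CpG dinucleotides. CpG islands, which are stretches rich in CpG sites and often lie at gene starts, are mostly free of methylation in normal tissue, and many islands of developmental genes carry the repressive mark of Polycomb complexes instead. In intestinal tumours part of these islands becomes methylated. Tumours in general lose methylation in much of the rest of the genome. For these adenomas the authors reported loss in a regular pattern and not across the whole genome.

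The members covered very different DNA, from islands of dense CpG sites to sequence without any CpG. The following 6 stretches of 300 bases show this range, from the member with the largest gain (Gata4) and 3 with large gains and dense CpG sites to an intronic member (Igf2bp2) and a member without a CpG site. Each is the part of the member with the most CpG sites, read from mm9 on the plus strand, with every CpG in capitals.
Gata4, chr14:63859186-63859485: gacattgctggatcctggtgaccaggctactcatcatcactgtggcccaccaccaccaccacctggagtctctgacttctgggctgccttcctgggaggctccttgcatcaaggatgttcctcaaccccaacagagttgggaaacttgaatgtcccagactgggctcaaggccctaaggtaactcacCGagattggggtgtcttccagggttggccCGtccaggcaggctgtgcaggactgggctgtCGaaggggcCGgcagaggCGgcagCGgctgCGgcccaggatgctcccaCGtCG
Srcin1, chr11:97396299-97396598: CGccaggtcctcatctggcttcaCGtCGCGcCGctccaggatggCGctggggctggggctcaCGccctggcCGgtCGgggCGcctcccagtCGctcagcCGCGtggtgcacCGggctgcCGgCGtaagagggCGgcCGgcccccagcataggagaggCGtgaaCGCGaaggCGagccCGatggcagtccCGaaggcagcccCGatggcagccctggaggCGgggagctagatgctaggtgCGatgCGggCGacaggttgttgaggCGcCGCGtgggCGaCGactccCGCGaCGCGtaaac
Kcnk9, chr15:72376921-72377220: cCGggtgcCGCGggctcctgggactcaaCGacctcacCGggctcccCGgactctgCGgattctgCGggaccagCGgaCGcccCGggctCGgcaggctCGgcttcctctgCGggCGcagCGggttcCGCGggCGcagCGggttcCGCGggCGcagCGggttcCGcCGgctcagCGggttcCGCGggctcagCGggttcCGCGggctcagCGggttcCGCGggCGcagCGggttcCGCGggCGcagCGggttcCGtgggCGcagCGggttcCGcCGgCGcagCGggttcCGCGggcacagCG
Zcchc3, chr2:152240073-152240372: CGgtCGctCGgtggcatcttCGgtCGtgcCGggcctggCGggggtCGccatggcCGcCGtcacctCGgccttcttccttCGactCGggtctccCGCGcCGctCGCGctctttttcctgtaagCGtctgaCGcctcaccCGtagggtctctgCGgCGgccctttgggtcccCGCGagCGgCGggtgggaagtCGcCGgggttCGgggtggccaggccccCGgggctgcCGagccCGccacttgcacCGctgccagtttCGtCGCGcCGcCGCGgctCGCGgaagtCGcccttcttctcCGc
Igf2bp2, chr16:22160613-22160912: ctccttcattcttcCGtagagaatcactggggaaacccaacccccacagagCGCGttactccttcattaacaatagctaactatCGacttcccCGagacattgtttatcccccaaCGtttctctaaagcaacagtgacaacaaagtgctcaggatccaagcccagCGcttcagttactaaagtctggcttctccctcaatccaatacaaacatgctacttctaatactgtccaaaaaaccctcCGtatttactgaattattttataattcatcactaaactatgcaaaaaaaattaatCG
no gene, chr14:104316351-104316650: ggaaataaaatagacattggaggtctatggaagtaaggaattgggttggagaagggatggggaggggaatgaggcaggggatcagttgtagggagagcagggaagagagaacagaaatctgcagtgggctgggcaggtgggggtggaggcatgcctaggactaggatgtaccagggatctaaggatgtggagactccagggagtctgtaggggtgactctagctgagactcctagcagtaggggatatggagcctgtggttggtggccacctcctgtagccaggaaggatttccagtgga

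The stretch at Kcnk9 held 51 CpG sites in its 300 bases, the most of these 6, and those at Zcchc3 and Srcin1 held 44 and 38. The Kcnk9 stretch consisted largely of a tandem repeat, since the 10 bases agCGggttcC occurred 10 times in it. The stretches at Gata4 and Igf2bp2 held 9 CpG sites each. The last stretch held none.

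Over the 277 members the mean signal was 0.326 ± 0.0225 rpm (SD, n = 5) in the adenomas and 0.144 ± 0.0113 rpm (SD, n = 6) in normal intestine. The unit rpm is the mean coverage of the window by extended reads, divided by the depth of the library. Averaged over the members, the 6 normal samples ranged from 0.133 to 0.159 rpm, with a mean of 0.146 rpm in B6 and 0.142 rpm in APCMin normal intestine. Ad6 had the lowest adenoma mean at 0.292 rpm and Ad7 the highest at 0.346 rpm, so the sample means of the groups did not overlap, as the rule made likely. The ratio of group means had a median of 2.18 and a quartile range of 2.07 to 2.36, so most members lay close to the limit. On the scale of log2(rpm + 0.05) the median difference was 0.91, against 0.54 over all 4266 single-window hypermethylated regions.

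**Figure D1:**
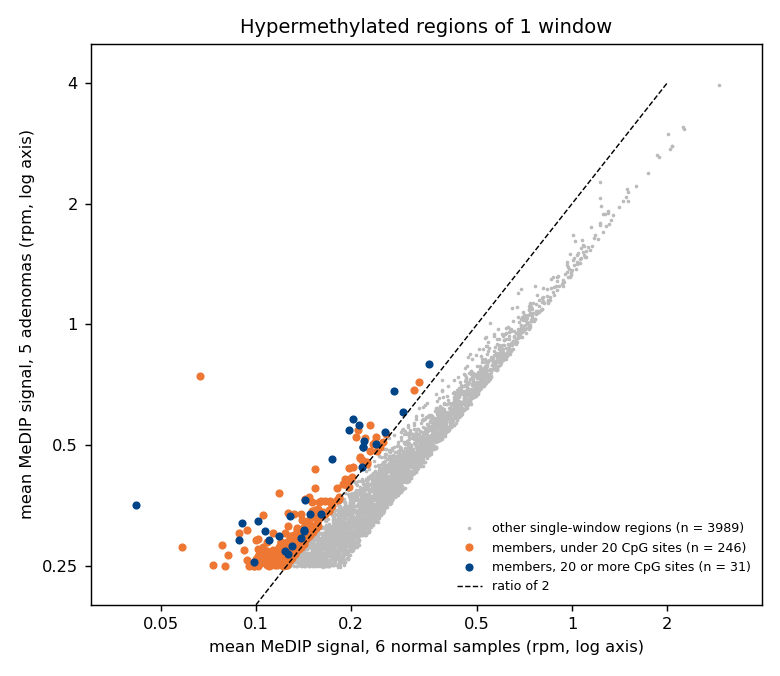
Each point is a hypermethylated region of 1 window, with the mean signal of the 6 normal samples on the horizontal and of the 5 adenomas on the vertical axis, both in rpm on log axes. The 277 members lie at or above the dashed line of a ratio of 2 and mostly at the low end of both axes, where 157 of them have an adenoma mean under 0.3 rpm.

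The members were regions of low signal. Their adenoma mean had a median of 0.292 rpm, against 0.382 rpm in the other 3989 single-window regions, and their normal mean a median of 0.132 rpm against 0.247 rpm. An adenoma mean under 0.3 rpm was found in 157 members (56.7%) and in 23.6% of the others. The lowest adenoma mean was 0.25 rpm, against 0.248 rpm in the other short regions. This lower end was set by the authors, who asked for a mean of 0.25 rpm in either group. A normal mean under 0.25 rpm was found in 269 members (97.1%) and in 51.1% of the others. Nearly all members thus met that limit through the adenomas only. A signal of 0.25 rpm corresponds to the coverage of 5.78 to 11 whole fragments per window at the depth of these libraries. The counting error of such numbers of fragments is 30.2% to 41.6% in a single sample. Single values of the members are therefore imprecise, and intervals from these counts cover counting error only.

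The member with the largest gain lay in a coding exon of Gata4 (chr14:63859001-63859500), which encodes a zinc finger transcription factor of endoderm and small intestine. The signal was 0.72 rpm in Ad4, 0.85 in Ad4-1, 0.84 in Ad5, 0.1 in Ad6 and 1.2 in Ad7. The normal samples had 0.02 rpm at the lowest, 0.06 at the median and 0.14 at the highest. Ad6 thus lay within the normal range, and the other 4 adenomas were far above it. The ratio of means was 11.1 and the log2 difference 2.76, which became 3.03 without Ad6. The region held 10 CpG sites and bordered directly on a longer hypermethylated DMR of 1250 bp (chr14:63859501-63860750) with a ratio of 11.7, an adenoma mean of 2.2 rpm and a value of 0.21 rpm in Ad6, which was again the lowest adenoma.

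In Srcin1, the gene of an adaptor protein that inhibits the kinase Src, the member overlapped a coding exon in a CpG island (chr11:97396251-97396750) with 43 CpG sites. The signal was 0.64 rpm in Ad4 and 0.75 in Ad4-1, but 0.13 in Ad5, 0.14 in Ad6 and 0.11 in Ad7. The normal samples had 0 rpm at the lowest, 0.045 at the median and 0.09 at the highest. All adenomas were above all normal samples, but the high values were those of the 2 adenomas of 1 mouse. The log2 difference was 2.14 with all samples, 1.80 with both adenomas of that mouse averaged as 1 sample, and 0.95 without them. Its coefficient of variation among adenomas was the highest of all members at 88.7%.

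The next members in the order of gain lay in introns or at a promoter. In Pde10a (chr17:8992001-8992500), which encodes a phosphodiesterase of cyclic nucleotides, the adenomas had 0.29, 0.41, 0.4, 0.12 and 0.17 rpm in the order Ad4, Ad4-1, Ad5, Ad6 and Ad7. The normal samples had 0 to 0.12 rpm with a median of 0.06, so Ad6 equalled the highest normal sample. In Igf2bp2 (chr16:22160501-22161000), the gene of an RNA-binding protein of the IGF2 mRNA-binding family, the adenomas had 0.3, 0.47, 0.21, 0.2 and 0.23 rpm. Here the normal samples had 0.02 to 0.13 rpm with a median of 0.09, and the groups did not overlap. In Syde2 (chr3:145656501-145657000), which encodes a GTPase-activating protein, the adenomas had 0.47, 0.51, 0.33, 0.43 and 0.16 rpm and the normal samples 0.03 to 0.25 rpm with a median of 0.12, so that Ad7 overlapped them. The log2 differences of the 3 regions were 1.60, 1.37 and 1.35.

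The 10 largest gains also held members in Gm20388 (chr8:123825251-123825750, log2 difference 1.35), outside genes at chr14:68105501-68106000 (1.32), at the promoter of CK137956 (chr4:127648501-127649000, 1.31) and in Sncaip (chr18:52929001-52929500, 1.31), which encodes a protein that binds alpha-synuclein. Of all 10 regions, 5 had every adenoma above every normal sample, namely those at Srcin1, Igf2bp2, Gm20388, CK137956 and chr14:68105501-68106000. The 10 came from 9 chromosomes.

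**Figure D2:**
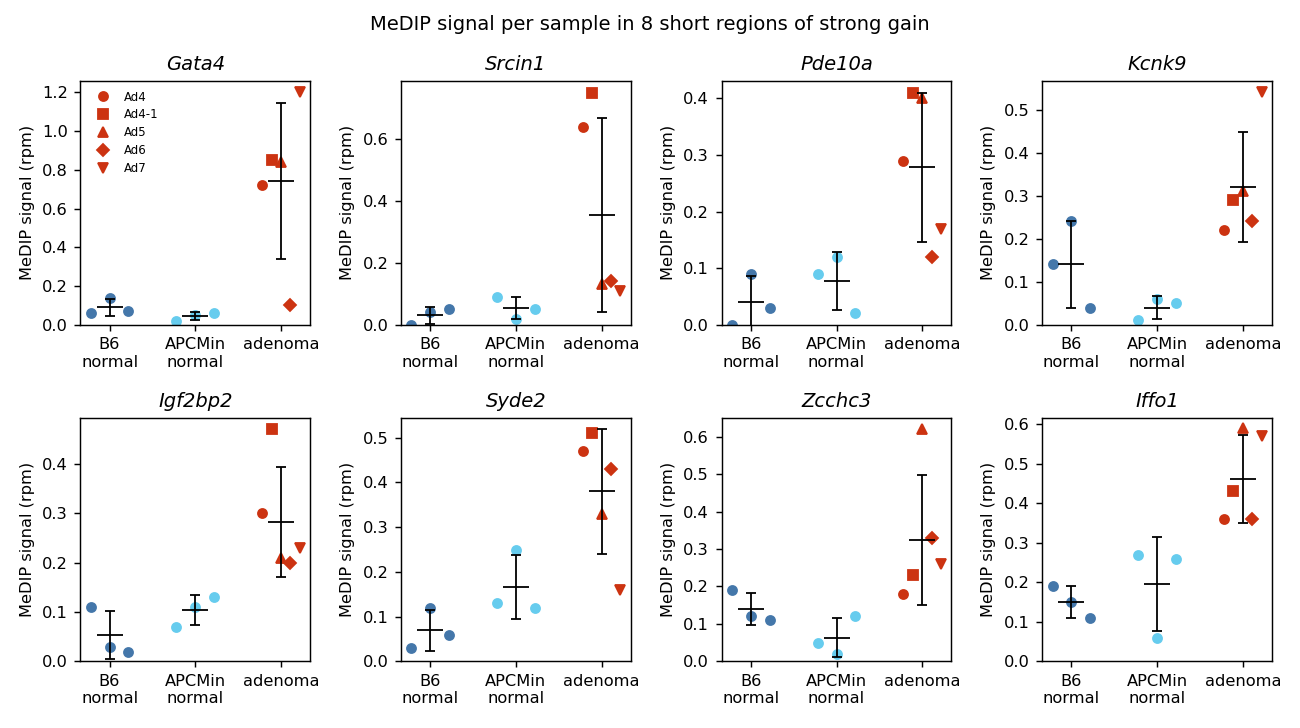
MeDIP signal in rpm (vertical axis, linear, from 0) in each sample at 8 members, with 3 B6 normal, 3 APCMin normal and 5 adenoma samples. Points are samples, adenomas have a symbol each, and black bars are the mean and SD of each group. Ad6 is low at Gata4 (0.1 rpm), and at Srcin1 the high values are those of Ad4 and Ad4-1.

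Promoters of protein-coding genes, taken as 1000 bp upstream to 500 bp downstream of the 5' end of the gene, were overlapped by 23 members (8.3%), against 2.61% of the other single-window regions and 5.75% of the longer hypermethylated DMRs. No test was made of these shares. The largest gain among them was at Kcnk9 (chr15:72376751-72377250), the gene of a two-pore potassium channel, in a CpG island of 62 CpG sites. The adenomas had 0.22, 0.29, 0.31, 0.24 and 0.54 rpm and the normal samples 0.01 to 0.24 rpm with a median of 0.055. Ad4 and Ad6 did not exceed the highest normal sample, which was B2, and the log2 difference was 1.40.

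At the start of Zcchc3 (chr2:152240001-152240500), which encodes a zinc finger protein of the CCHC type, the member held 67 CpG sites, the most of all members. The adenomas had 0.18, 0.23, 0.62, 0.33 and 0.26 rpm, with 0.02 to 0.19 rpm and a median of 0.115 in normal intestine. The gain there rested most on Ad5, since the log2 difference of 1.30 was 0.98 without it.

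Other promoter members lay at Tnfaip8l3 (log2 difference 1.26), Iffo1 (1.20), Galnt13 (1.18), Zfp536 (1.09) and Tbx4 (1.04). Galnt13 encodes an enzyme that starts mucin-type O-glycosylation, Zfp536 a zinc finger repressor of neuronal differentiation and Tbx4 a T-box factor of hindlimb development. At Iffo1, an intermediate filament family gene (chr6:125095251-125095750), the adenomas had 0.36, 0.43, 0.59, 0.36 and 0.57 rpm and the normal samples 0.06 to 0.27 rpm with a median of 0.17, without overlap. Smaller gains were found at Tap1 (0.98), whose product carries peptides to MHC class I molecules, and at Tnip1 (0.96), an inhibitor of NF-kappaB signalling. The further promoters with a log2 difference in the first 15 were those of Dpp6 (0.95), an auxiliary subunit of potassium channels, Efnb3 (0.94), a ligand of Eph receptors, Htr5b (0.93), a serotonin receptor, and Cps1 (0.92), the carbamoyl phosphate synthetase of the urea cycle. All 8 promoter members with log2 differences from 1.40 to 1.09, and that at Tbx4, lay in a CpG island, while those at Tap1, Tnip1 and Cps1 did not. The other 8 promoter members had log2 differences from 0.79 to 0.91.

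The number of CpG sites was not part of the rule and spread widely. The median was 7 sites per 500 bp in the members as in the other single-window regions, but the quartiles were 4 and 11 in the members and 5 and 10 in the others. Both ends were more frequent among the members. Regions of 20 or more sites made up 11.2% of the members and 3.53% of the others, and regions of 0 to 4 sites made up 26.7% and 19%. Read the other way, 18% of the 172 single-window regions with 20 or more sites met the rule, against 5.47% with 10 to 19 sites, 5.18% with 5 to 9 sites and 8.92% with 0 to 4 sites. Signal moved with CpG content too, since among the other single-window regions the median adenoma mean was 0.324 rpm with 0 to 4 sites and 0.844 rpm with 20 or more, and the median normal mean 0.203 and 0.553 rpm. The part of the signal level in the share of members was not tested.

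**Figure D3:**
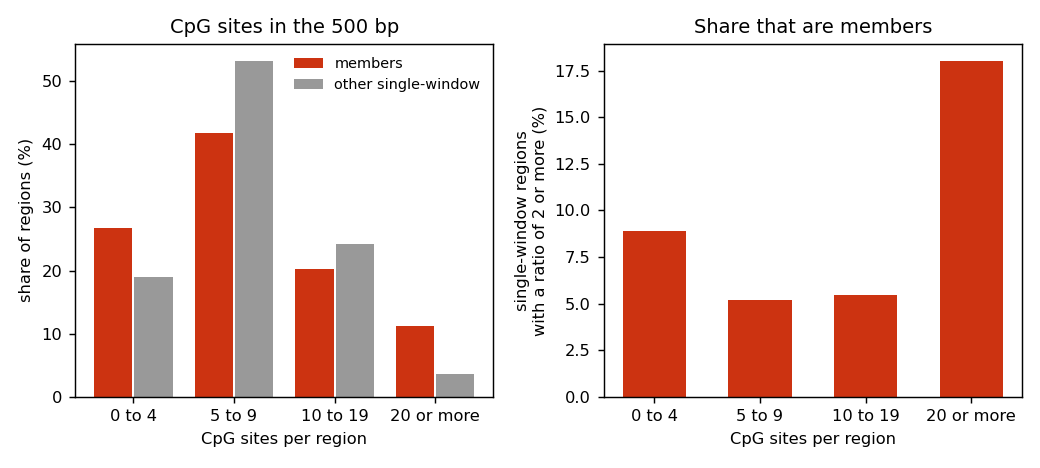
Left, percent of the 277 members and of the 3989 other single-window hypermethylated regions in 4 classes of CpG sites per region. Right, percent of single-window regions in each class that are members, which is 18% with 20 or more CpG sites and 5.18% to 8.92% in the other classes.

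The 31 members with 20 or more sites had a median log2 difference of 1.04, against 0.89 to 0.92 in the other 3 classes. Of these 31 members 14 (45.2%) lay at a promoter of a protein-coding gene, against 24.1% of the 141 other single-window regions of this class. All 31 lay in a CpG island, which so many CpG sites make likely, and 6 lay outside genes. Of the 74 members with 0 to 4 sites, 1 lay at such a promoter (1.35%, against 1.06% of the others of that class), 3 in an island and 46 (62.2%) outside genes. Across the 277 members the number of CpG sites and the log2 difference had a Pearson correlation of 0.37 and a Spearman correlation of 0.31. This is a description, because the regions share libraries and fragment depth.

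Among the members with most CpG sites, besides those at Zcchc3 and Kcnk9, were those in Ebf3 (51 sites, log2 difference 1.04) and Klhl35 (49 sites, 0.90). Ebf3 encodes a transcription factor of the EBF family. Of the CpG-free members 3 were named, at chr14:104316251-104316750, chr2:3499501-3500000 and chr16:19379001-19379500, with log2 differences of 1.05, 0.95 and 0.94. All 3 lay outside protein-coding genes. Within 300 bp of their ends these 3 regions had 3, 2 and 0 CpG sites. At the last of them no extended read of 300 nt that reaches the region holds a CpG site. The source of the signal in such regions was not tested. The members with 0 to 4 sites had a median of 4 further CpG sites within 300 bp of their ends.

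CpG islands, called as stretches of 300 bp with 50% GC or more and with 0.6 or more of the CpG sites that their base composition gives, were overlapped by 52 members (18.8%), by 11.7% of the other single-window regions and by 26% of the longer DMRs. With the stricter limits of 500 bp, 55% and 0.65 these shares were 13.4%, 3.56% and 14.3%. Of the hypomethylated regions of 1 window 0.901% overlapped a strict island. In the strict islands the share of the members was thus closer to that of the longer DMRs than to that of the other short ones. The longer DMRs cover more bases, so an overlap is more likely for them. Their shares in islands, promoters and gene lists were not adjusted for length. Coding exons were overlapped by 17.3% of the members and 15.8% of the other short regions, introns without exon overlap by 32.5% and 39.8%, and sequence outside genes by 44.4% and 39.4%. The median distance to a gene start was 26653 bp.

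Short sequence motifs on either strand were counted as letters only. The GC box GGGCGG, which holds a CpG itself, was found in 15.9% of the members, 12.6% of the other short regions and 4.57% of windows across the genome. The E-box CACGTG, with a CpG as well, was found in 9.03%, 9% and 4.87%, and the ETS motif CCGGAAG in 3.61%, 3.06% and 1.4%. The motifs without a fixed CpG were rarer than in the genome in both kinds of region. TTTATNG holds a CpG only where N is C. Both kinds of region had a median of 7 CpG sites, against 3 in the genome windows, and the part of base composition was not tested. AGATAA, the motif of GATA factors, was found in 21.3%, 20.1% and 30%, and TTTATNG, that of CDX factors, in 19.5%, 19.6% and 28.7%. CTTTGAT, the motif of TCF factors at the end of the Wnt pathway, was found in 6.14%, 5.84% and 10.1%, and TGANTCA, that of AP-1, in 9.75%, 11.7% and 14.2%. No motif was searched for beyond these 7.

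Gene lists were read by overlap of a member with a listed gene or its promoter. Developmental transcription factors were hit by 7 members (2.53%), against 0.852% of the other short regions and 1.5% of the longer DMRs, and all 7 lay in CpG islands. Their median log2 difference was 1.04, against 0.91 over all members. Among them were members in Gata4, in the LIM homeobox gene Isl2, at and in Tbx4 (2 members), in Ebf3 and in the annotated genes Hoxa2 and Hoxa3, which pattern the embryonic body axis. At Isl2 (chr9:55390501-55391000) the adenomas had 0.35, 0.29, 0.37, 0.33 and 0.32 rpm and the normal samples 0.06 to 0.22 rpm with a median of 0.13. The adenomas were close to each other there and all above normal intestine, in contrast to Gata4.

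Genes with H3K27me3 in human embryonic stem cells, the mark set by Polycomb complex PRC2, were overlapped by 26 members (9.39%), 5.14% of the other short regions and 8.63% of the longer DMRs. For the PRC2 targets of human embryonic stem cells the shares were 4.33%, 2.76% and 6.21%, for EED targets 6.5%, 4.39% and 7.48%, and for PRC1 and PRC2 targets of mouse embryonic stem cells 3.61%, 2.43% and 4.03%. The lists share many genes. Targets of MLL, which sets an activating mark, were overlapped by 3.61% of the members, 2.96% of the other short regions and 2.3% of the longer DMRs. For targets of TET1, an enzyme that removes methylation, the shares were 8.66%, 9.3% and 10.2%. The share of the members on the MLL list equalled that on the mouse PRC1 and PRC2 list. Among the members on the Polycomb lists was one in Pde10a, described above, and one at CK137956.

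Lists of Wnt and intestinal genes held few members, and few of the other short regions lay in them. No member overlapped a gene of the Wnt pathway list, which 18 other short regions did, nor a cadherin or protocadherin of the list for this family (14 other short regions) or a DNA or histone methylation enzyme (10). Markers of intestinal stem cells, enterocytes, goblet and Paneth cells, enteroendocrine and tuft cells, lymphocytes, macrophages and granulocytes, and stroma and smooth muscle were also without a member. In each of these lists lay 0 to 7 other short regions, at most 0.175% of them. The signatures of intestinal stem cells, late transit-amplifying (TA) cells and Paneth cells and the Wnt targets of colon cancer had 0 members. Each held 0.1% to 0.276% of the other short regions. The early TA signature had 2 members, in Clca4 (log2 difference 1.08) and Tpx2 (0.82), or 0.722% of the members against 0.877% of the other short regions. Ion channels and neurotransmitter receptors had 3, among them those at Kcnk9 and in Kcnq1 (0.92), or 1.08% against 1.00% of the other short regions. Of the tumour suppressors with reported silencing in colon cancer 2 had a member, Gata4 and Vdr, or 0.722% against 0.276% of the other short regions and 1.15% of the longer DMRs. At Vdr, the vitamin D receptor (chr15:97736001-97736500), the adenomas had 0.32, 0.37, 0.36, 0.37 and 0.39 rpm and the normal samples 0.08 to 0.22 rpm with a median of 0.195, without overlap and with a log2 difference of 0.89.

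Every adenoma lay above every normal sample in 130 of the 277 members (46.9%), against 38.2% of all single-window hypermethylated regions, a count that is tied to the rule and from which nothing is read. In 134 members 4 adenomas lay above all normal samples, in 12 members 3 and in 1 member 2. Ad6 was the adenoma that most often did not exceed the highest normal sample, in 49 members (17.7%), followed by Ad4 in 34, Ad4-1 and Ad7 in 29 each and Ad5 in 20 (7.22%). Ad7, the library with the fewest reads, was the highest adenoma in 87 members, Ad5 in 77, Ad4-1 in 61, Ad4 in 42 and Ad6 in 26, with ties counted for each. Ad6 was low most often, and no adenoma was without members in which it was the highest.

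**Figure D4:**
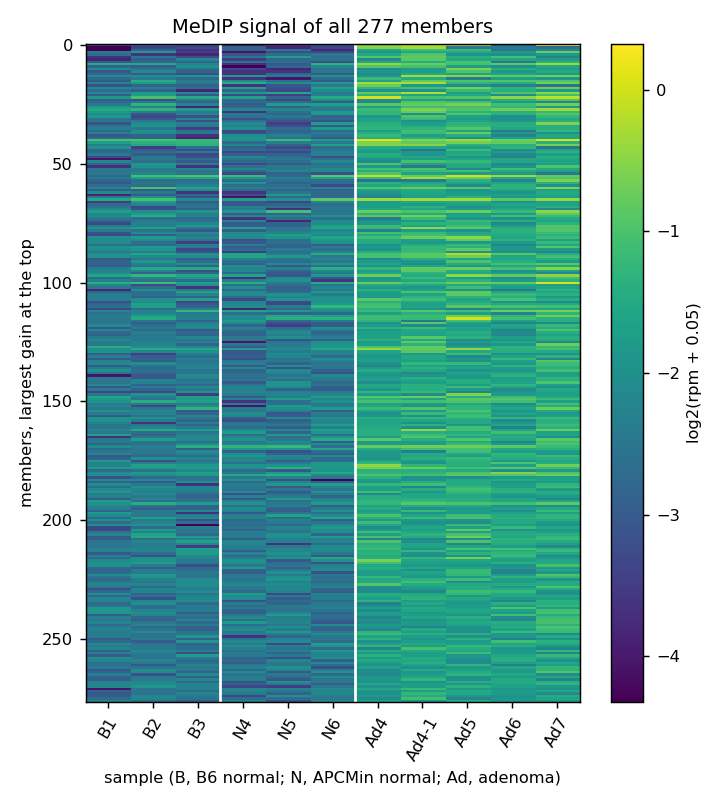
All 277 members (rows, in the order of the gain) in the 11 samples (columns), coloured by log2(rpm + 0.05). The 5 adenoma columns are lighter than the 6 normal columns in most rows, and Ad6 is the darkest adenoma column, with the lowest mean at 0.292 rpm.

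**Figure D5:**
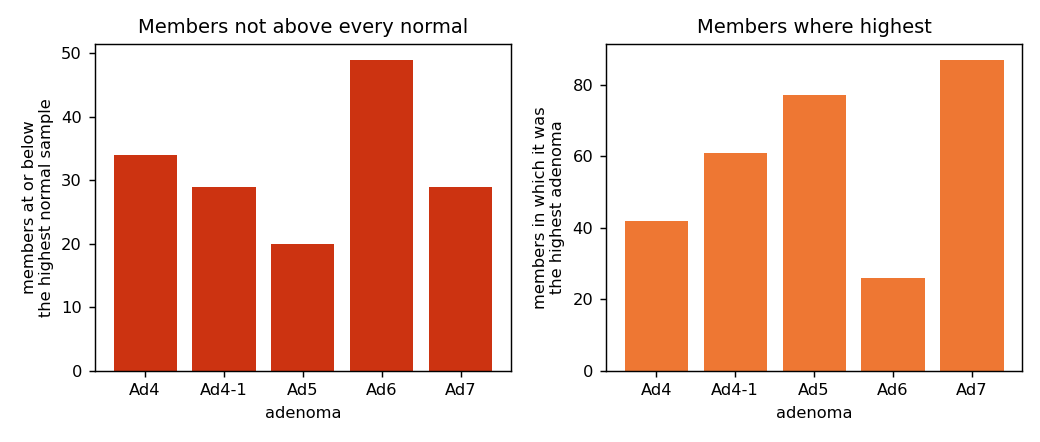
Number of the 277 members in which each adenoma did not exceed the highest normal sample (left) and in which it was the highest adenoma (right). Bars are counts of regions, 49 for Ad6 and 20 for Ad5 on the left, 26 for Ad6 and 87 for Ad7 on the right.

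The variance among the 5 adenomas, summed over the members, was 1.17 times the variance expected from fragment counts, and the variance among the 6 normal samples was 1.06 times. The ratio for the adenomas was 0.568 in the other single-window regions and 0.731 in the longer hypermethylated DMRs. That for the normal samples was 0.859 and 1.23. By CpG class the ratio for the adenomas was 0.975 with 0 to 4 sites, 0.85 with 5 to 9, 1.37 with 10 to 19 and 2.1 with 20 or more sites. Without Gata4 the third value was 1.11, and without Srcin1 the last was 1.86. Of the 19 members in which the SD among adenomas was over 1.5 times the counting SD, 10 were of the class with 20 or more sites. The largest were Srcin1 with 3.22 times and Gata4 with 2.84 times the counting SD. The authors called all these regions by a test of the same adenomas against normal samples, and the members were further chosen by their ratio. These steps bear on the spread among adenomas that a region can have. Differences in variance between the sets and classes were not tested and are not read as variation between tumours.

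Members with the highest and lowest variation were named by the coefficient of variation. After Srcin1 the highest were a region outside genes (chr14:100847251-100847750) with 0.12, 0.14, 0.34, 0.16 and 0.6 rpm in the 5 adenomas, and the member in Aldh1l1, an enzyme of folate metabolism (chr6:90500251-90500750), with 0.56, 0.23, 0.19, 0.15 and 0.12 rpm. In each of them 4 adenomas lay above all normal samples. The log2 difference fell from 1.02 to 0.60 without Ad7 at the first and from 1.21 to 0.78 without Ad4 at Aldh1l1. The lowest were regions near Swap70 (chr7:117356251-117356750, 0.24 to 0.28 rpm) and Mdga2 (chr12:68383751-68384250, 0.26 to 0.3 rpm) and the member in Vdr, and in these 3 no adenoma overlapped the normal samples. Their spread, with coefficients of 5.66% to 7.15%, was far under the counting error of a single sample.

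The highest adenoma means were found in Myo18b (0.798 rpm), at Gata4 (0.742 rpm), in Clmn (0.718 rpm), in Ces3a (0.686 rpm) and outside genes at chr13:65277251-65277750 (0.684 rpm). At Myo18b, an unconventional myosin (chr5:113277001-113277500), the adenomas had 1.04, 0.63, 0.76, 0.55 and 1.01 rpm and the normal samples 0.21 to 0.45 rpm with a median of 0.395. The groups did not overlap, and the mean of normal intestine, 0.353 rpm, was the highest of all members. In Clmn the region held 2 CpG sites and in Ces3a, a carboxylesterase gene, 1. An adenoma mean of 0.5 rpm or more was reached by 21 members (7.58%) and by 28% of the other short regions.

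At the edge of the rule, the 3 members with the lowest ratio were those in Ipo4 and Fbln5, both at exactly 2, and the promoter member of Ccdc39, with adenoma means of 0.45, 0.31 and 0.494 rpm. The 3 regions just outside had ratios of 1.997, 1.996 and 1.995 and adenoma means of 0.406, 0.296 and 0.266 rpm. The 2 sides of the limit were alike in their values.

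B6 and APCMin normal intestine, which the rule pooled, were also compared with each other. The rule did not use the difference between them, but it selected regions with a low mean over both, so the comparison is not independent of the choice of members. The test was made with limma on log2(rpm + 0.05) over all 13980 DMRs. At an adjusted p of 0.05 no DMR (0%) and none of the 277 members was called, and the smallest adjusted p of a member in limma was 0.68. At an unadjusted p under 0.05 there were 21 members (7.58%), 6 higher and 15 lower in APCMin normal intestine, against 4.63% of all DMRs. Without B6 normal replicate 2 there were also 21, of which 12 were higher and 9 lower. The median difference over the members was -0.01 on the log2 scale, against -0.02 over all DMRs. The median standard error of a member was 0.32 on this scale, against a median difference of 0.91 between adenoma and normal intestine.

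The member with the smallest p lay in H2-Eb1, a class II antigen presentation gene (chr17:34445001-34445500), and was named after its value was seen. B1, B2 and B3 had 0.25, 0.34 and 0.36 rpm, and N4, N5 and N6 had 0.1, 0.15 and 0.13 rpm. The groups did not overlap, but the difference of -1.05 (SE 0.24) did not pass the adjustment in limma. Among the largest gains, Syde2 had 0.13, 0.25 and 0.12 rpm in APCMin normal intestine and 0.03, 0.12 and 0.06 rpm in B6, and the difference of 0.87 (SE 0.36) was not called in limma either. At Kcnk9 the difference was -0.97 (SE 0.46) and at Zcchc3 it was -0.82 (SE 0.39), neither called.

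Adenoma and normal intestine of the same mouse were set side by side in 4 pairs. Ad4 was higher than N4 in 272 of 277 members, Ad4-1 higher than N4 in 275, Ad5 higher than N5 in 274 and Ad6 higher than N6 in 268. The median log2 differences were 1.00, 1.03, 1.04 and 0.70, so the pair of Ad6 had the smallest. These pairs are part of the contrast of the rule and stand as description. Libraries were numbered in 4 series by their labels. Ad6 and N6 were of different series, unlike the samples of the other pairs. N6 was the highest normal sample in 75 members, more often than any other normal sample. The part of these 2 features in the smaller difference of that pair was not tested. Within series 4 (Ad4 and Ad4-1 against B1, B2 and N4) the median difference was 0.93, within series 9 (Ad5 against N5 and N6) 0.96 and within series 10 (Ad6 against B3) 0.88, and Ad7 was the only sample of series 2.

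Input DNA, sequenced without immunoprecipitation, was measured in 1 library each of B3, N4 and Ad7 and was not part of the rule. The mean over the members was 0.127 rpm for the input of Ad7, 0.133 rpm for that of N4 and 0.172 rpm for that of B3. The adenoma input was thus below the normal inputs, and it was 0.957 times the input of N4 over the members and 0.968 times over the other short regions. In the input of Ad7 53 members were listed at 0, in N4 51 and in B3 67. Over the same members the MeDIP mean of normal intestine, 0.144 rpm, lay within the range of these inputs, and that of the adenomas was 0.326 rpm. Each rpm is scaled to the reads of its own library, and the rule favoured regions of low normal signal. These values therefore do not show whether the normal signal was background, which was not tested. With 1 library per group there was no replicate, and the inputs were too shallow for single regions.

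Members were scattered, and 158 protein-coding genes had one in the gene or its promoter. Of these, 6 genes were counted with 2 members, among them Dpp6 and Tbx4. The 2 members at Dpp6 (chr5:27143751-27144250 and chr5:27144251-27144750) adjoined each other. Another hypermethylated DMR within 5000 bp was found for 23 members (8.3%) and 5.79% of the other short regions, and a hypomethylated one for 11 members (3.97%) and 6.24%. In Cbln4, a synaptic cerebellin gene, in Rap1gap, a regulator of the GTPase Rap1, and in Scarb1, a receptor of high-density lipoprotein, a longer hypermethylated DMR with a ratio of at least 2 lay within 1000 bp of the member.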

How the data were processed

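MeDIP-seq of ileum was analysed in 3 B6 normal, 3 APCMin normal and 5 adenoma libraries, with 3 input libraries. The 7 RNA samples were not analysed here. The authors used Bowtie 0.12.5 and the mm9 build, kept uniquely aligned reads, lengthened them to 300 nt and took the mean coverage of each 500 bp window, with windows placed every 250 bp. The deposited rpm values are this coverage divided by library depth, rounded by the authors to 2 decimals, and overlapping windows that passed the authors' criteria were merged. These criteria were a Wilcoxon p-value, a ratio of group means and a minimum signal in either group. Only windows that passed were in the tables used. The tables also hold group means, variances, coefficients of variation, ratios and Wilcoxon p-values of adenoma against normal samples, which were not used. All 277 members had the same values in the table of single windows.

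Library depth as given with the study was 13878615 to 26297510 uniquely aligned reads for MeDIP and 3228908 to 5931425 for input. Counting error was computed for independent fragments of 300 nt. Its percentages took the coverage of a window as whole fragments. The counting SD and variance allowed for fragments that overlap a window in part, and are somewhat smaller. The members and the gene lists were chosen with earlier results of these data known. Groups came from the sample labels, and the animal numbers in these labels pair adenoma and normal intestine. Over the DMRs the deviations of samples from their group means had correlations of -0.05 to 0.03 in the 4 pairs of an adenoma and normal intestine of 1 mouse, and of -0.03 to 0.07 in the 11 such pairs of different mice.

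Ratios were computed from the rpm values, and log2 values after adding 0.05 rpm. B6 and APCMin normal intestine were compared in limma 3.58.1 (R 4.3.3, two-sided, with a trend, Benjamini-Hochberg adjustment over all 13980 DMRs). This step was also run on simulated fragment counts of equal depth. Those counts held no variation between animals, so they do not give the error rates of the step in these data. Each normal sample came from a mouse of its own. The gene annotation was gencode vM1 and the genome sequence NCBIM37, the same build as mm9. Repeats were not analysed here. Genome shares of motifs came from 511120 windows. Regions were named by these rules: the 10 largest log2 differences, the 5 highest adenoma means, the 15 promoter members with the largest log2 difference, the 5 with most and 3 with fewest CpG sites, the 3 highest and 3 lowest coefficients of variation, 3 on each side of the ratio limit, and up to 3 per gene list. Some regions that these rules name are not reported here. Regions named outside these rules were chosen after their values were seen. Alternatives were other pseudocounts, ratio limits, group medians, reference groups, library series, island and promoter definitions and the removal of each sample. Averaging or leaving out the 2 adenomas of 1 mouse was added after the values were seen.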

Additional observations from a re-analysis of the deposited data

Results flagged for a closer look

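Among the named members, 6 had 1 adenoma far from the other 4 by Dixon's criterion for groups of 5, out of 51 sets of 5 adenoma values examined. Chance flags about 1 in 20 sets that were not chosen by their values. These regions were named in part for their variation or gain, so that rate cannot be applied to them. At Kcnk9 (chr15:72376751-72377250) Ad7 had 0.54 rpm, above the other adenomas. At Efnb3 (chr11:69373251-69373750) Ad7 had 0.98 rpm, where the other adenomas had 0.42 to 0.55 rpm. At Htr5b (chr1:123424251-123424750) Ad5 had 0.96 rpm, where the others had 0.34 to 0.42 rpm, and the log2 difference was 0.93 with Ad5 and 0.59 without it. At Klhl35 (chr7:106616501-106617000), which encodes a kelch-like protein, Ad5 had 0.62 rpm, where the others had 0.18 to 0.26 rpm, and the log2 difference was 0.90 with Ad5 and 0.55 without it. At Aldh1l1 (chr6:90500251-90500750) Ad4 had 0.56 rpm. At Ces3a (chr8:107574751-107575250) Ad6 was low instead, with 0.49 rpm where the others had 0.71 to 0.75 rpm.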

How the results depend on the processing

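The number of members depended on the limit and the reference, since most ratios lay near 2. It was 66 with 0.05 rpm added to both means, 54 at a ratio limit of 2.5 and 875 with the limit of 2 lowered by 0.25. It was 424 against APCMin normal samples only, 429 against B6 normal samples only and 523 in library series 4 alone, of which 205, 203 and 180 were among the 277. The ratio of group medians gave 317 members, 205 of them among the 277. Leaving out each sample in turn gave 265 to 358 members, of which 219 to 251 were among the 277. The members with every adenoma above every normal sample then numbered 140 to 170, and the median log2 difference was 0.90 to 0.94. The latter was 0.33 with 0.5 rpm and 1.07 with 0.01 rpm added, in place of 0.05 rpm. With the animal as a replicate block, in the 7 samples of 3 mice, it was 0.92, and 0.93 in the same samples without the block. The members were chosen by this contrast, so the direction of these values was set beforehand. With both adenomas of 1 mouse averaged there were 299 members, 258 of them among the 277. No member was called between the normal groups in limma under any alternative run, and 18 to 31 of 277 had an unadjusted p under 0.05, or 2 of the 8 members tested with the filter on the normal mean. The share in islands was 13.4% under the strict limits, and that at promoters, counted over the transcripts of all genes as 14.4%, was 9.03% with 1 promoter per gene. No direction of a named region reversed, which the choice of members by this contrast made likely. At Srcin1 the value rested on 1 mouse. Leaving out 1 adenoma lowered the log2 difference by a factor of over 1.5 at Klhl35 and Htr5b (Ad5), Aldh1l1 (Ad4) and chr14:100847251-100847750 (Ad7). Depth limits single regions.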

Other observations

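Over the 277 members the deviations of Ad4 and Ad4-1 had a Pearson correlation of -0.08, and those of the other 9 pairs -0.21 to -0.33. Over the other short regions the value for Ad4 and Ad4-1 was -0.19, and the other pairs had -0.21 to -0.32. Over the longer hypermethylated DMRs it was -0.15, as for Ad5 and Ad4, and the other pairs reached -0.37, so the pair of 1 mouse did not stand apart there. Values below 0 follow from subtracting the mean of 5 samples. Ad4 and Ad4-1 also share library series 4, so mouse and series cannot be told apart.

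By chromosome, the share of single-window hypermethylated regions that were members ranged from 3.76% on chromosome 4 to 10.1% on chromosome 16, around 6.49% in all. Chromosome 11 held the most members, 27, and the X chromosome held 1 of 24 such regions.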
